A study of Mus musculus with 3 samples.

Results

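The genes described here are 143 predicted mouse transcripts that carry only a placeholder name, Gm followed by a number, and no class code in the deposited expression table. The table held 15311 genes, of which 358 were named in this way and 238 of those had no class code; the other 120 were coded active (97), bivalent (18) or 0 (5). From the 238, 4 rows were left out by name, and the remaining 234 were cut to those with at least 50 counts summed over 3 libraries. That cut kept 143 genes and left 91 below it. Because the sum includes the K3R3 library, the choice used the measured counts, and 7 of the 143 had fewer than 34 counts in the wild-type libraries together. Of those 7, 5 had most of their counts in K3R3: Gm5567 (2 and 8 wild-type counts, 42 in K3R3), Gm16551 (3, 23 and 41), Gm18756 (11, 12 and 27), Gm600 (14, 18 and 38) and Gm9776 (14, 19 and 38). Just inside the cut lay Gm18756 with 50 summed counts, Gm5567 with 52 and Gm20199 with 53, and just outside lay Gm14137 and Gm16523 with 49 each and Gm16576 with 47.

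The samples were polyadenylated RNA from mouse embryonic stem (ES) cells, labelled as strain V6.5 (129SvJaexC57BL/6), while the protocols name KH2 transgenic lines. Every line carried an H2A.Z-YFP transgene, driven by a CMV promoter through rtTA and induced with 1 µg/ml doxycycline, together with a hairpin that targets endogenous H2A.Z through its 3′ untranslated region. In wild type (WT, 2 libraries) the transgene was unaltered, and in K3R3 (1 library) lysines 119, 120 and 123 were arginine. YFP-positive cells were sorted. Cells were grown on irradiated mouse feeder fibroblasts until the last passage. The labels do not give whether a line was 1 clone or whether separate cultures gave the wild-type libraries. The p-values therefore rest only on how far these libraries spread, and that spread may be technical. In the main test it was taken from a trend over all genes, not from each gene alone.

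Placeholder names are given to mouse gene models that were predicted by computer before anything was known of their function. Many of these models are processed pseudogenes, which arise when a messenger RNA is copied into DNA and inserted elsewhere, so their sequence closely follows that of the source gene. Others are long noncoding RNAs, members of recently duplicated families such as KRAB zinc finger genes, or ordinary genes that later received a name. The histone variant H2A.Z sits near the start sites of many genes, and its C-terminal lysines can carry ubiquitin.

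Reads from a copied gene and from the gene it resembles differ only where the sequences differ, and 2 pseudogenes and 1 protein-coding member show how many such places there are. The members' and genes' transcripts were taken from GENCODE M21 (build GRCm38), while the deposited counts were made on mm9. In each pair below the 30-base window with the most differences is shown, with the differing bases in capitals. Positions count from 1 at the first coding base of the gene resembled.
Gm12070, on chromosome 11 by RefSeq, resembles Gapdh, the glycolytic enzyme. Its single difference over 999 aligned coding bases is G361A, and the longest identical run is 638 bases.
Gapdh: agggtcatcatctccGccccttctgccgat
Gm12070: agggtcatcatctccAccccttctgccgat
Gm11968, on the same chromosome, resembles Rps15a, a protein of the small ribosomal subunit, with 5 differences in 390 coding bases. Bases 135 to 164 hold T150C and A164G.
Rps15a: atacattggtgaattTgagatcattgatgA
Gm11968: atacattggtgaattCgagatcattgatgG
Gm2022, on chromosome 12, resembles Eif1a, a translation initiation factor, with 22 differences in 432 coding bases, although the gene in the table nearest to it is another member, Gm2016, at 98.9% identity. Bases 130 to 159 hold A130T, A131G, C136T, C153T and C159T.
Eif1a: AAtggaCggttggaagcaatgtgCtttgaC
Gm2022: TGtggaTggttggaagcaatgtgTtttgaT
The pairs were picked by hand with the members' values known. Neither the read length nor the treatment of reads that fit several places was found in the labels, so counts of members with close copies are uncertain.

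How widely sequence was shared was measured on the M21 transcripts, matched for 136 members. In 43 members at least 50% of all 50-base words also occurred in a transcript of another gene, and in 7 members every word did. In 51 members under 10% of words were shared, and in 21 none was. By alignment, 57 members had at least 90% identity over at least 50% of their length to another gene in the table, here called near copies. Both measures took either strand and did not leave out genes that overlap the member in the genome. Such overlap can therefore count as shared sequence without a copy elsewhere. The M21 model was not always the model the authors counted, since the deposited gene length lay within 10% of the M21 transcript for 70 members.

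By RefSeq (GRCm38.p6), which matched 142 members (Gm17066 was not matched), 35 were long noncoding RNAs, 54 were pseudogenes and 53 were protein-coding. RefSeq held 38 of them under another symbol, which for Gm8348 is again a placeholder, Gm10409. Among the renamed genes are Gm10664, now Apela, a secreted peptide that acts through the apelin receptor, and Gm11974, now Snhg15, a host gene of small nucleolar RNA. Gm16880 and Gm1631 are now Platr22 and Platr26, named as pluripotency-associated transcripts, and Gm15800 is now Hectd4, a ubiquitin ligase of the HECT family.

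The members were shorter than most genes in the table. Their median deposited gene length was 1773 bases against 2778 over all rows, and 35 members (24.5%) were under 1 kb against 8.02% of all rows. The longest were Gm15800 (15482 bases), the long noncoding RNA Gm3414 (7912) and the zinc finger gene Gm4636, now Zfp850 (6546). The shortest were Gm10012 (372), Gm19705 (414) and Gm4832 (485). The 120 Gm genes that carry a class code were also short, with a median of 1820 bases. So were the 306 genes without a class code whose name ends in Rik, with a median of 1662 bases.

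**Figure D1:**
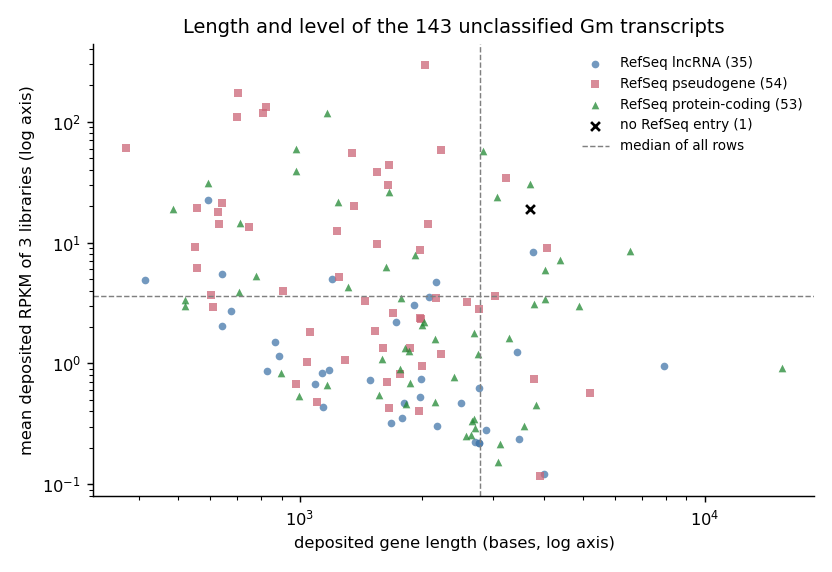
Deposited gene length in bases (x, log axis) against the mean deposited RPKM of the 3 libraries (y, log axis) for the 143 members, by RefSeq type, with dashed lines at the medians of all 15311 rows (2778 bases and 3.59 RPKM). Most members lie left of the length line, and the highest levels are those of pseudogenes.

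The members' level, in deposited RPKM (reads scaled to gene length and to library size), had a median of 2.32 over the means of 3 libraries, against 3.59 over all rows. The minimum of 50 counts bounds this level from below, and all rows had no such minimum. The members ranged from 0.118 RPKM (Gm18756, now Nlrp5-ps) to 297.7 RPKM (Gm6548), with 50 below 1 RPKM and 33 at 10 RPKM or more. Pseudogenes outside the zinc finger, Eif1a-like and chromosome 14 families described below made up 20 of those 33. All 143 members together held 0.463% of the counts in WT replicate 1, 0.446% in WT replicate 2 and 0.426% in K3R3.

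The 10 highest members by RPKM were 7 such pseudogenes, 2 other protein-coding genes and 1 zinc finger gene. Gm6548, a copy of Eef1a1, which encodes the factor that delivers aminoacyl-tRNA to the ribosome, was at 321.4 and 296.2 RPKM in the wild-type libraries and 275.4 RPKM in K3R3, and alone held 21.4%, 20.2% and 19.7% of the members' counts. Its value in K3R3 was below both wild-type values, with a fitted log2 change of -0.29 and an SE of 0.17 (edgeR's quasi-likelihood test, adjusted p = 0.60). The ubiquitin B copy Gm1821, now Ubb-ps, was at 211.6, 144.2 and 167.3 RPKM, with K3R3 between the wild-type libraries. Gm11968 and Gm13253, both Rps15a copies, were at 148.2, 128.2 and 119.7 RPKM and at 116.4, 104.2 and 105.5 RPKM in WT replicate 1, WT replicate 2 and K3R3.

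Gm15421, which resembles the ribosomal protein gene Rpl22l1, was at 113.2, 137.0 and 104.1 RPKM, the lowest in K3R3. Gm5803, now Hnrnpa1l2-ps2 and a copy of the RNA-binding protein gene Hnrnpa1, was at 110.0, 126.1 and 117.5 RPKM. Gm10012, now Cox7c-ps1, a copy of a cytochrome oxidase subunit gene, was at 68.9, 59.1 and 53.0 RPKM. None of these 3 was called, with log2 changes of -0.39, -0.13 and -0.40. Gm10664 (Apela) was at 39.8, 64.0 and 76.3 RPKM, so K3R3 lay above both wild-type libraries, which themselves differed more from each other than K3R3 did from the higher one. Its fitted log2 change was 0.43 (SE 0.22, unadjusted p = 0.0494, adjusted p = 0.442 by edgeR). Of its M21 transcript's 50-base words, 26.8% were shared with another gene. The other two were Gm12504, now Ptma-ps2 (59.1, 54.5 and 60.1 RPKM), and the zinc finger gene Gm13051 (62.0, 62.0 and 47.8 RPKM).

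The near copies were compared with the gene in the table they resembled most. Over the 30 near copies among the pseudogenes outside the named families, the member's mean RPKM had a median of 16.7% of the resembled gene's, and 10 of the 30 were under 10%. Gm6548 was at 11.2% of Eef1a1, and Gm6607 at 1.11% of the ribosomal gene Rps20. Gm12070, at 96.5, 65.4 and 61.9 CPM with K3R3 the lowest, was at 45.1% of Gapdh in RPKM. Others were listed above the gene they resemble: Gm5424 at 208% of the urea cycle gene Ass1 and, outside the pseudogenes, Gm5803 at 1412% of Hnrnpa1. Hnrnpa1 itself was listed at only 8.49, 8.75 and 7.80 RPKM, and Gm5803 aligned to it at 97.7% identity over 100% of its length. For Rps15a the order turned with the scale. Per length, Gm11968 was at 205% and Gm13253 at 169% of it, but Rps15a had 538.6, 494.0 and 454.8 CPM, against 189.7, 161.8 and 139.6 CPM for Gm11968 and 126.1, 111.2 and 104.1 CPM for Gm13253. How much of a member's count came from its resembled gene was not tested.

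**Figure D2:**
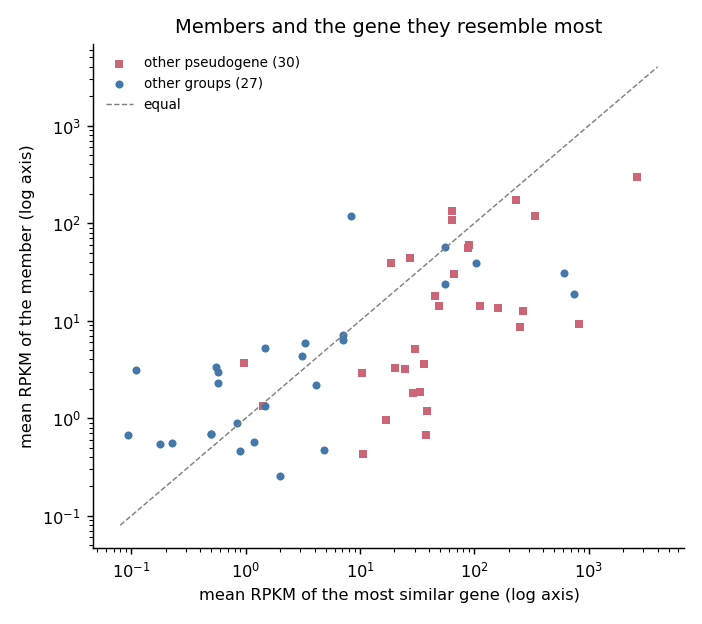
Mean deposited RPKM of the most similar gene in the table (x, log axis) and of the member (y, log axis) for the 57 near copies; the dashed line marks equal values. Pseudogenes outside the families (squares, 30) lie mostly below the line, with a median of 16.7% of the gene's level.

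The same pairs were set side by side in each contrast. In these 30, the median log2 change of K3R3 against wild type was -0.22 for the member and -0.18 for the resembled gene, and the median log2 difference of WT replicate 2 from WT replicate 1 was -0.23 and -0.12. None of the resembled genes was called. Across all 48 such pseudogenes, WT replicate 1 was above WT replicate 2 in 31. It was so in 61 of all 143 members, which include these 48, and in 6763 of the 13829 genes tested. The pseudogenes' median difference of K3R3 was -0.31 from WT replicate 1 and 0.02 from WT replicate 2, so the size and sign of the median depended on the wild-type library used.

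In the comparison of K3R3 with wild type, 1 of the 143 members (0.699%) passed edgeR's quasi-likelihood test at an adjusted p of 0.05, against 2.57% of the 13829 genes tested. All 143 members were tested, and the minimum of 50 counts that chose them used the same libraries. No member was called higher, where 2.02% of all tested genes were, and 1 was called lower against 0.542%. At an unadjusted p under 0.05, 3 of the 143 members were higher, against 7.9% of all tested genes. Lower at that p were 8 of the 143, against 3.33% of all tested genes. Together these were 7.69% of members against 11.2% of tested genes. Of 173 tested unclassified Rik genes, 1 was called higher and 1 lower, and 7.51% had an unadjusted p under 0.05 by edgeR. Of 89 tested Gm genes with a class code, 1 was called higher and 2 lower, and 10.1% had such a p. For 10984 tested active genes these values were 92, 52 and 7.77%. For 1671 tested bivalent genes, which are among all tested genes but hold no member, they were 175, 9 and 33.1%. DESeq2's Wald test called 0 members, with 4 at an unadjusted p under 0.05, and 0.427% of all tested genes. By a rule of size without a test, which asked for a 2-fold difference from each wild-type library in CPM + 1 (CPM being counts scaled to library size) at a mean of at least 1 CPM, 0 of 130 members passed, against 2.27% of 12761 genes, 2.1% above and 0.172% below.

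The called member was Gm239, now Myrfl, a protein-coding gene related to the myelin regulatory factor Myrf. Its counts were 38 and 29 for wild type against 3 for K3R3, or 1.81, 1.17 and 0.115 CPM. K3R3 was far below both wild-type libraries. Gm239 met the minimum of 50 counts through wild type, where it was high, so its choice is not independent of this difference. The same holds for Gm4902, Gm2022 and Gm5091, described below. The ratio of K3R3 to wild type for Gm239, scaled to library size, was 0.0789 (95% interval 0.0159 to 0.241, counting error only). Its fitted log2 change was -3.63 (SE 1.09, adjusted p = 0.0395 by edgeR). With DESeq2 the log2 change was -3.69 and the gene was not called (adjusted p = 0.438), and Gm239 was not tested when the minimum mean was raised to 2 CPM. None of the 50-base words of its M21 transcript was shared with another gene.

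Gm5567, now Tmem178b, which encodes a transmembrane protein, had counts in the opposite order, 2 and 8 for wild type against 42 for K3R3 (0.0951, 0.322 and 1.61 CPM). Its fitted log2 change was 2.88 (SE 0.90, adjusted p = 0.0539 by edgeR), with a ratio of 7.40 (95% interval 3.65 to 16.5, counting error only). It was included only through its K3R3 count, so this difference belongs partly to how it was chosen. Its adjusted p was 0.0314 with library totals implied by the deposited RPKM values, 0.0416 without a minimum on counts, 0.00918 with edgeR's likelihood ratio test and 0.91 with DESeq2 (log2 change 2.94).

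The long noncoding RNA Gm20362, named here after its values were seen, was counted 173 and 198 times for wild type and 430 times for K3R3, or 8.23, 7.98 and 16.5 CPM. The wild-type libraries lay close together and K3R3 well above them. Its log2 change was 1.03 and its adjusted p was 0.0883 by edgeR. With the implied library totals, under which 3.73% of tested genes and 3 of the members were called, its adjusted p was 0.0309, and with DESeq2 it was 0.50.

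The median fitted log2 change of the members was -0.12 (quartiles -0.39 and 0.17), against -0.01 over all tested genes. Tested unclassified Rik genes had a median close to that of the members, -0.11. Active genes and Gm genes with a class code each had a median of -0.04. Against WT replicate 1 alone the members' median was -0.11, against WT replicate 2 alone it was -0.06, and WT replicate 2 stood 0.04 above WT replicate 1. K3R3 lay above both wild-type libraries in 40 members (28.0%, against 33.9% of tested genes), below both in 52 (36.4%, against 34.2%) and between them in 51. Of tested unclassified Rik genes, 26.01% were above both and 37.57% below both, so these shares were not particular to the members. The same shares were 27.85% and 37.86% for active genes, and 31.46% and 34.83% for Gm genes with a class code. Scaling by the totals behind the RPKM values instead, the medians became 0.01 for members and 0.11 for all genes, so the sign of the members' median depends on the scaling. The values of K3R3 against each wild-type library share the K3R3 library.

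**Figure D3:**
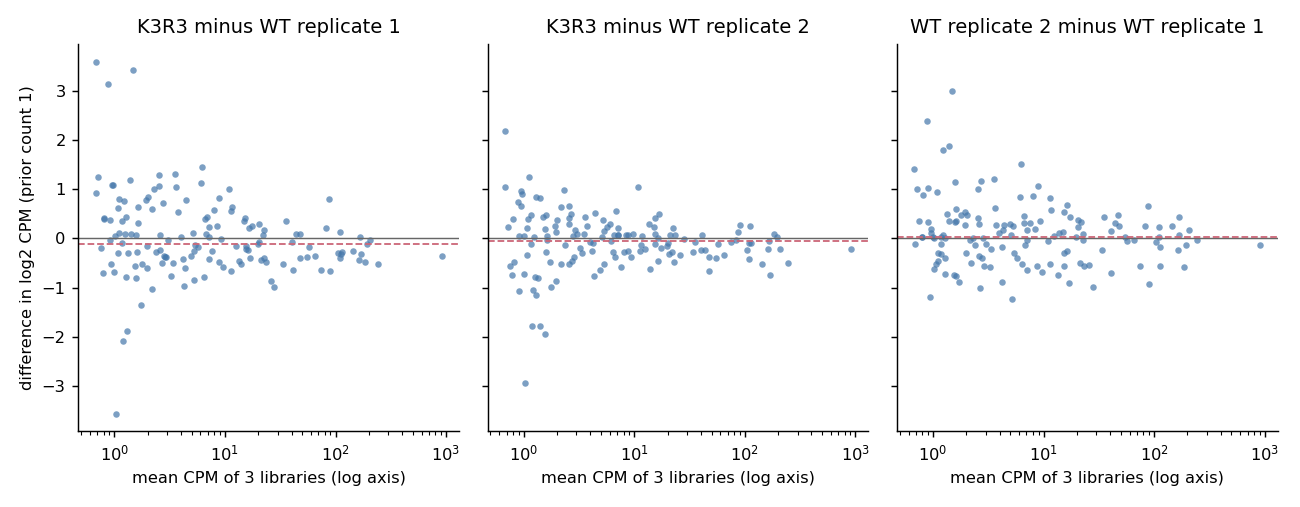
Difference in log2 CPM (y) against the mean CPM of the 3 libraries (x, log axis) for the 143 members: K3R3 minus WT replicate 1, K3R3 minus WT replicate 2, and WT replicate 2 minus WT replicate 1. The dashed lines are the medians (-0.11, -0.06 and 0.04), and in all 3 panels the points spread most at low CPM.

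The gap between the medians of members and of all genes was widest at low levels. Between 0.5 and 2 CPM the 43 members had a median log2 change of -0.01, where all 2157 tested genes at that level had 0.50. From 2 to 10 CPM the medians were 0.01 for 47 members and 0.20 for 3151 genes. From 10 to 100 CPM they were -0.14 (39 members) and -0.04 (5977 genes), and at 100 CPM or more -0.24 (14 members) and -0.13 (2544 genes). Bivalent genes, none of which is a member, had a median of 0.65 and a median level of 2.41 CPM. Active genes between 0.5 and 2 CPM had a median of 0.40. Unclassified Rik genes were not divided by level. These medians carry no test, and the members' minimum of 50 counts was not asked of the other genes.

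Differences between the wild-type libraries were as wide as those involving K3R3 for several members. A gap of at least 2-fold between the wild-type replicates was found in 15 members (10.5%), against 6.57% of tested genes. Gm15706 had 4, 45 and 64 counts in WT replicate 1, WT replicate 2 and K3R3, Gm16551 had 3, 23 and 41, and Gm11545 had 15, 68 and 20. In Gm15706 and Gm16551, both long noncoding RNAs, K3R3 was closer to WT replicate 2 than the wild-type libraries were to each other. In Gm11545 it lay between them. Their log2 changes of 1.26, 1.52 and -1.18 had adjusted p-values of 0.488, 0.489 and 0.684 by edgeR.

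Members were grouped by sequence and RefSeq type after their values had been seen, and the division of zinc finger genes by chromosome was drawn with those values in view. The groups therefore carry no test, and members of a family share sequence, so their counts are not independent of each other. The groups were zinc finger genes on chromosome 4 (6), chromosome 2 (8) and other chromosomes (7), Eif1a-like genes (4), copies of 1 family on chromosome 14 (8), other pseudogenes (48), other protein-coding genes (26), long noncoding RNAs (35) and the unmatched Gm17066.

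**Figure D4:**
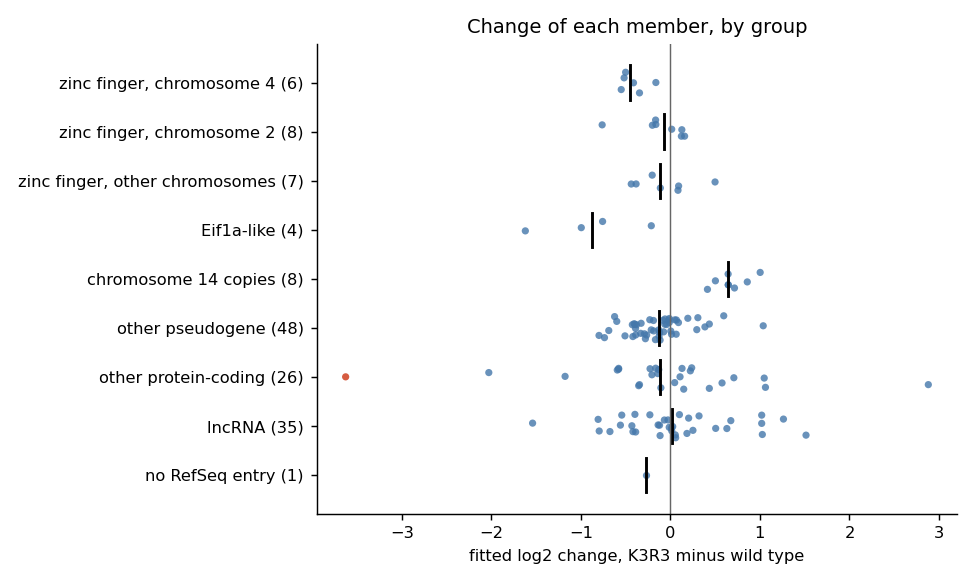
Fitted log2 change of K3R3 minus wild type (x) for each of the 143 members, by group (y, with the number of members). Each point is 1 member, black bars are medians, and the red point is Gm239, the only one called; the chromosome 4 zinc finger genes and Eif1a-like genes lie below 0 and the chromosome 14 copies above it.

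C2H2 zinc finger proteins bind DNA through arrays of small zinc-held folds, and many of those with a KRAB domain silence transposable elements in ES cells. All 6 zinc finger members on chromosome 4 were lower in K3R3 than in both wild-type libraries, where 34.2% of tested genes were; none was called. The share differed by level: 3 of them were above 100 CPM, where 61.3% of tested genes were below both, 2 were between 10 and 100 CPM (37.6%) and Gm13139 was between 2 and 10 CPM (18.6%). Their log2 changes ran from -0.55 to -0.16 with a median of -0.46. Gm13051, now Zfp987, was at 272.9, 268.8 and 191.5 CPM in the same order of libraries, a log2 change of -0.50 (SE 0.20, adjusted p = 0.195 by edgeR). Gm13251, now Zfp992, was at 160.5, 216.8 and 129.0 CPM, a change of -0.55 (SE 0.21, adjusted p = 0.153). In Gm13051 the wild-type libraries were close together and K3R3 lay apart from them, while in Gm13251 they differed by more than K3R3 did from the lower one.

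Gm13247, now Zfp981, was at 118.9, 121.3 and 90.3 CPM, and Gm13212 at 71.2, 69.3 and 55.3 CPM. Gm13152, now Zfp982, was at 39.4, 44.1 and 37.3 CPM, so its difference from WT replicate 1 was small, and Gm13139, now Zfp991, was at 4.95, 6.04 and 3.84 CPM. With the implied library totals 5 of the 6 remained below both wild-type libraries. A median of 54.4% of their 50-base words was shared with other genes. The 3 other genes in the table that aligned to them at 85% identity or more over at least 50% of the member, Rex2, Zfp534 and Zfp600, had log2 changes of -0.37, -0.46 and -0.43, each below both wild-type libraries and none called. All 3 were above 100 CPM, where 61.3% of tested genes were below both. They share sequence with the members, so their counts are not independent of them.

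The zinc finger members elsewhere gave other values. On chromosome 2 the median log2 change was -0.07, with 1 of 8 above both wild-type libraries, 2 below both and 5 between. Gm14325, the highest of them by RPKM, was at 41.0, 57.2 and 43.8 CPM, and WT replicate 2 was above WT replicate 1 in all 8. On other chromosomes the median was -0.11, with 0 of 7 above both, 3 below both and 4 between. The median levels of these groups, 16.4 and 21.9 CPM, lie between 10 and 100 CPM. At that level 25.9% of tested genes were above both and 37.6% below both. Gm2381 on chromosome 7 was at 59.1, 60.2 and 45.8 CPM, and Gm4636 (Zfp850), on the same chromosome, at 74.3, 88.1 and 86.2 CPM. The 308 active genes named Zfp in the table had a median of 0.02. Whether the chromosome 4 genes differ from the others was not tested.

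Eif1a-like genes are duplicates of a translation initiation factor gene, and related copies are known for transcription at the 2-cell stage of the embryo. All 4 members, on chromosome 12, were below both wild-type libraries, at low levels where 15.4% (0.5 to 2 CPM) and 18.6% (2 to 10 CPM) of tested genes were. Of the 143 members at those levels, these 4 included, 32.6% and 29.8% were below both. A median of 53.95% of the 50-base words of the 4 was shared with other genes. Gm2022 had 44, 31 and 14 counts, a log2 change of -1.62 (SE 0.82, adjusted p = 0.435 by edgeR). Gm5039 had 57, 36 and 27 counts, Gm8300 had 43, 62 and 35, and Gm2016 had 55, 59 and 56, with log2 changes of -0.995, -0.76 and -0.21. In Gm5039 the wild-type libraries lay further apart than K3R3 lay from the lower one, and in Gm2016 all 3 libraries were close together. None of the 4 was called. The copy BB287469, which is no member, did not share their order: its 36, 28 and 34 counts put K3R3 between the wild-type libraries, with a log2 change of -0.12. Eif1a itself, at 521, 539 and 508 CPM, had a log2 change of -0.06.

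Beside these values, the 2-cell-like marker list without Eif1a, of which 5 of 8 genes were in the table, summed to 10.7, 13.4 and 8.72 CPM. Tcstv1, Tcstv3 and Tdpoz4 were not among the table's rows, and none of the list's genes was called. The part of 2-cell-like cells in the Eif1a-like values was not tested. Fewer cells of a type and less RNA per cell cannot be told apart in these bulk samples.

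The 8 copies on chromosome 14 are near copies of one another or of other predicted genes there, with a median of 95.6% of 50-base words shared. All 8 were above both wild-type libraries in K3R3, where 33.9% of tested genes were; none was called or reached an unadjusted p of 0.05. Of tested genes at their levels, more lay above both: 59.5% between 0.5 and 2 CPM, which holds 2 of the copies, and 52.6% between 2 and 10 CPM, which holds the other 6. Their log2 changes ran from 0.41 to 1.00 with a median of 0.65. Gm3383 had 77, 163 and 209 counts, Gm8348 had 132, 143 and 222, and Gm3002 had 71, 101 and 152. Gm3264, with 36, 43 and 90 counts, had the largest change of the 8 (SE 0.57, adjusted p = 0.555 by edgeR).

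Gm5796 had 49, 89 and 127 counts, Gm8050 36, 57 and 95, Gm10408 26, 23 and 44, and Gm10413 15, 18 and 25. On the log2 CPM scale, the wild-type libraries of Gm3383 and Gm5796 lay further apart than K3R3 lay from the higher one. Gm10413 was below 34 counts in wild type together, and reached the minimum of 50 through its K3R3 count. Of 7 other rows of the table aligning to these genes at 85% identity or more, 6 were above both wild-type libraries and 1 between, 4 were tested and 0 called. Those rows share long stretches of sequence with the members, so they are not independent of them. All 8 members stayed above both wild-type libraries with the implied totals and with DESeq2 size factors.

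**Figure D5:**
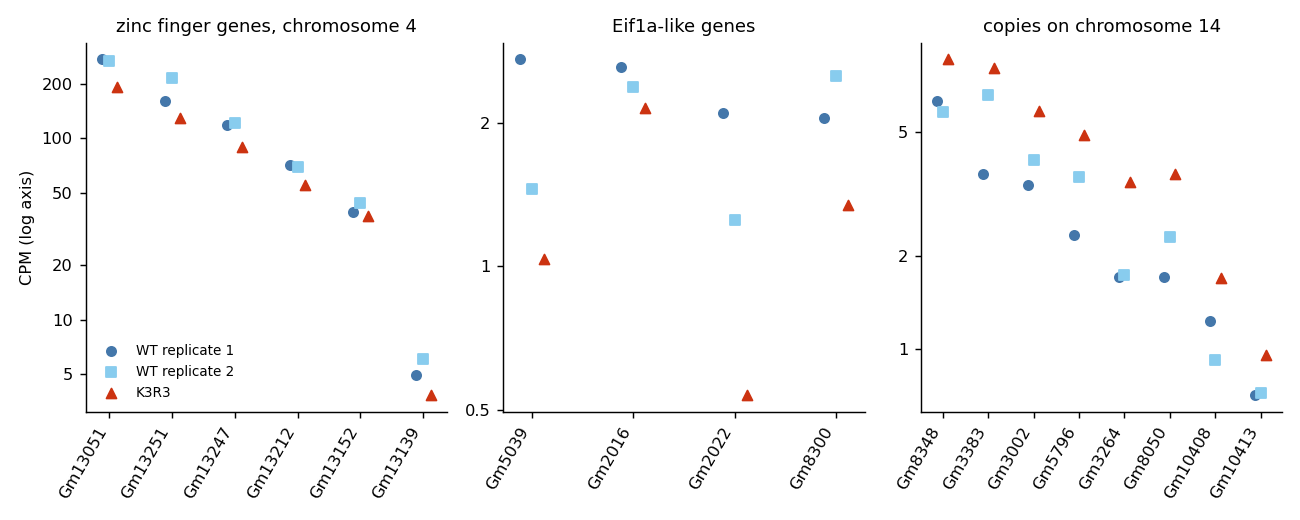
CPM (y, log axis, a separate scale in each panel) of the zinc finger members on chromosome 4 (6), the Eif1a-like members (4) and the chromosome 14 copies (8) in each library. K3R3 (triangles) lies below both wild-type libraries for every member in the first and second panels and above both in the last.

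The 35 long noncoding RNAs, which are transcribed but not translated into a known protein, had a median log2 change of 0.01. Of them, 12 were above both wild-type libraries (34.3%, against 33.9% of tested genes), 10 below both (28.6%, against 34.2%) and 13 between. Between 0.5 and 2 CPM, which holds their median level of 1.63 CPM, 59.5% of tested genes were above both and 15.4% below both. The median level of these RNAs was 0.835 RPKM, and 21 were under 1 RPKM. Gm11974 (Snhg15) was the highest at 22.3 RPKM, with 20.2, 20.7 and 18.6 CPM. Gm10336, at 48.4, 58.0 and 36.5 CPM, was below both wild-type libraries with a log2 change of -0.54 and an unadjusted p of 0.0402. Platr22 (Gm16880) was at 5.47, 11.4 and 9.64 CPM and Platr26 (Gm1631) at 2.19, 1.77 and 1.96 CPM, both with K3R3 between the wild-type libraries. Gm5091 had 26, 69 and 18 counts, a log2 change of -1.54 (SE 0.75, adjusted p = 0.405 by edgeR). Gm10336, Snhg15 and the Platr genes were picked with their values in view.

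The other protein-coding members had the widest range of log2 values, from Gm239 to Gm5567. Gm4902, now Phf11b, a PHD finger gene, had 37, 35 and 10 counts and a log2 change of -2.03 (SE 0.88, adjusted p = 0.276 by edgeR). The wild-type libraries were close together and K3R3 lay below them, but 47.0% of its 50-base words were shared, with Phf11a the gene that shared most. Gm600, now Nuggc, a nuclear GTPase gene, had 14, 18 and 38 counts and a change of 1.06, having reached the minimum of 50 through its K3R3 count, and Gm11837 had 20, 17 and 44 counts and a change of 1.05. Gm15800 (Hectd4) was at 26.1, 18.4 and 19.2 CPM, with K3R3 between the wild-type libraries, and Gm12657, a copy of the histone gene H3f3a, was at 60.1, 58.0 and 53.6 CPM. Of the 26 genes, 10 were above both wild-type libraries (38.5%, against 33.9% of tested genes), 9 below both (34.6%, against 34.2%) and 7 between. Between 2 and 10 CPM, which holds their median level of 2.69 CPM, 52.6% of tested genes were above both and 18.6% below both.

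The 3 libraries held 21614693, 25426228 and 24718223 counts in WT replicate 1, WT replicate 2 and K3R3. H2afz, the gene of H2A.Z, was at 219.1, 231.6 and 221.6 CPM, which does not separate the endogenous from the transgenic transcript and does not check the labels. ES cell markers summed to 6093, 5092 and 4063 CPM, with a median log2 change of -0.36 and 3 of 8 called lower, and primitive endoderm markers to 478, 386 and 203 CPM, with a median of -0.89 and 4 of 8 called lower. Fibroblast markers, for the feeder cells, summed to 312, 249 and 243 CPM with 1 called higher, while their median log2 change was 0.42, opposite in sign to the sums, and Postn and Lum were not among the rows. Trophoblast markers summed to 138, 65.5 and 99.95 CPM, with a median log2 change of 0.31 and none called. The part of these shifts in the members' values was not tested, and with 1 K3R3 library they cannot be told apart from that library.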

How the data were processed

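RNA-seq of 2 wild-type and 1 K3R3 ES cell libraries was analysed from 1 deposited table. The authors deposited counts per gene, made with HTSeq 0.5.4p1 on mm9 per the submitters' processing notes, with gene length. The authors also deposited RPKM values. Their deposited columns of fold, log2 fold and p-value came from the authors' comparison (DESeq 1.10.1, per the submitters' processing notes) and were not used for any result. By their values, the deposited fold and log2 are wild type over K3R3. Not given in the sources used here are the aligner, annotation and strand setting. The smallest count was 1 in every library, so a gene at 0 anywhere has no row, and no member can have fallen to 0. Column totals were 66.2% to 67.1% of the totals implied by RPKM.

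Counts were tested with edgeR 4.0.16 (R 4.3.3; two-sided quasi-likelihood test, TMM factors computed on all rows, mean of at least 0.5 CPM, Benjamini-Hochberg at 0.05) over 13829 genes. With 1 residual degree of freedom, all spread was estimated between the wild-type replicates, and K3R3 is assumed to vary like them. The estimated prior weight was infinite, and p-values follow the dispersion trend. The script was tested on simulated data. The order of filter and TMM was settled after members' calls had been seen under 3 versions. Differences from a single wild-type library used log2 CPM with a prior count of 1 and no test. DESeq2 1.42.0 was an alternative. Sequence similarity used BLAST+ 2.17.0 on GENCODE M21 transcripts, and zinc finger members had at least 3 C2H2 pattern matches or aligned to one that did. Promoters were not used here.

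The members and lists were chosen with earlier results of these data known, and groups and similarity limits were set after member values were seen. Members named were those called or 2-fold from both wild-type libraries, the 10 highest by RPKM, the 5 largest changes each way, the 3 longest and shortest, the 3 widest wild-type gaps, those next to the cut, and family groups; others are marked or were picked after their values were seen.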

Additional observations from a re-analysis of the deposited data

How the results depend on the processing

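No paired analysis was possible because K3R3 has a single library with no replicate number. The count of 1 called member became 3 with library totals implied by the RPKM values (Gm239, Gm5567 and Gm20362), 2 without a minimum on counts and 2 with the likelihood ratio test (Gm239 and Gm5567 in both). It became 0 at a minimum mean of 2 CPM, 0 with DESeq2's Wald test and 0 when members needed 100 summed counts, since Gm239 has 70. DESeq2 called 59 genes in all, 33 higher and 26 lower, in place of 355; the cause was not tested. Implied totals called 516 genes, 466 higher and 50 lower, against 280 and 75. The median fitted log2 change was -0.115. The median log2 CPM difference, another measure, was -0.109 from WT replicate 1 alone and -0.061 from WT replicate 2 alone. No fit was repeated with 1 wild-type replicate left out. The fitted median was 0.009 with implied totals and -0.013 in the 51 members with under 10% of words shared. The count of 0 members 2-fold from each wild-type library became 2 with a pseudocount of 0.5 (Gm239 and Gm4902, lower) and 1 with implied totals (Gm20362, higher). Under implied totals Gm12504 changed sign (0.082) and Gm4944 did too (0.01), both near 0. TMM recomputed after the filter called 368 genes and a filter on unscaled CPM 371, each with Gm239 as the called member (adjusted p = 0.0399 and 0.0396 by edgeR); these, the word-sharing subset and the family counts under other scalings were chosen after seeing the data. Few counts limit the low members, 50 of which were under 1 RPKM.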
